A study of Homo sapiens with 9 samples.

Results

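The HOX cluster genes are the 39 rows, of 35876 gene symbols in the table, whose symbol is HOX followed by a cluster letter from A to D and a number. They were chosen by name alone. HOX genes encode homeodomain transcription factors and lie in 4 clusters, one on each of 4 chromosomes. Within a cluster the genes are ordered by paralogue group, a number shared by the copies that descend from one ancestral gene, and the order along the chromosome mirrors the order in which the genes come on from head to tail in the embryo. Low numbers are the anterior genes at the 3′ end of a cluster, and high numbers are the posterior genes at the 5′ end. Cell lines tend to keep the HOX pattern of the body level they came from. In the kidney, posterior HOX genes such as HOXA11, HOXC11 and HOXD11 are known for their part in forming the organ.

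RNA was sequenced from HEK293, a transformed line made from human embryonic kidney. The 3 genotypes, with 3 libraries each, are labelled CC_Cas9 (Cas9, an RNA-guided DNA nuclease, alone), CC_Cas9_Cre (Cas9 with Cre, a recombinase that joins loxP sites) and CC_Cas9_Flpo (Cas9 with Flpo, a recombinase that joins FRT sites). They are called the Cas9, Cre and Flpo groups here. Every group is thus labelled as carrying Cas9. The prefix CC, which stands in every genotype, is not explained. No promoter, guide or target is named either, and nothing says whether a genotype is 1 clone or whether replicates were separate cultures, so p-values measure only the spread between these libraries, which may be technical. The extraction text speaks of livers of the cells, and 7 of 8 hepatocyte markers were detected, at 3 or more counts, in fewer than 6 of the 9 libraries, with TTR, SERPINA1 and FGB below 3 counts in every library and TF, the exception, detected in all 9. Of 10 markers of embryonic kidney epithelium 8 were detected in at least 6 libraries, and PAX2 was below 3 counts in all.

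Library totals ran from 213907 estimated counts in Cre replicate 2 to 8833491 in Flpo replicate 1, a range of 41.3-fold, and every Cre total lay below every Flpo total. Levels are given as CPM, counts per 1000000 of a library total scaled by edgeR's TMM factors, and, to compare genes with each other, as CPM per kilobase of annotated exon. A gene is called detected in a library at 3 or more counts, and on where it was detected in at least 6 of the 9 libraries. That floor of 3 counts was 0.473 CPM in Flpo replicate 3 and 11.03 CPM in Cre replicate 2, so a gene missing from Cre replicate 2 may have been too low to see. All 39 genes together held 155, 334 and 769 counts in the Cas9 libraries, 408, 19 and 146 in the Cre libraries, and 1351, 601 and 1504 in the Flpo libraries. As summed levels these were 128, 190 and 217 CPM in the Cas9 group, 197, 69.9 and 124 CPM in the Cre group, and 231, 151 and 237 CPM in the Flpo group. Cre replicate 2 was the lowest and the groups overlapped.

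By the rule on detection 27 of the 39 HOX genes were on in HEK293. Another 9 were detected in 1 to 5 libraries and 3 in none. HOXB1 and HOXD12 had 0 counts in every library, which allows a level of up to 0.0953 CPM (unscaled) over the 31463858 counts of all libraries, counting error only. HOXD1 never had more than 2 counts. HOXC8 and HOXD10 were detected in all 9 libraries. In Cre replicate 2, 31 HOX genes had 0 counts, and 3 genes reached 3 counts. Between 15.1 and 22.4 HOX genes with a count would be expected in the other libraries at the total of Cre replicate 2, against the 8 that it had.

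All 4 clusters were transcribed. The HOXA cluster (chr7:27092993-27200106, GRCh38, GENCODE 29) had 9 of 11 genes on and held 24.9% ± 7.80 of the HOX counts (SD, n = 9 libraries). The HOXB cluster (chr17:48528526-48729178) had 6 of 10 on and held 27.8% ± 5.60. The HOXC cluster (chr12:53938765-54056030) had 7 of 9 on and held 27.3% ± 9.67. The HOXD cluster (chr2:176092891-176190907) had 5 of 9 on and held 20.0% ± 6.23. Library by library the shares overlapped: HOXB ran from 15.8% to 34.8% and HOXD, the lowest on average, from 10.3% to 31.6%.

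Of the 12 genes that were not on, 6 lay at the anterior end. In paralogue groups 1 to 3, 2 of 8 genes were on (HOXA3 and HOXB3), with a median level of 0.337 CPM per kb. HOXB1, HOXB2 and HOXD1 were among those that were not. In groups 4 to 8, 11 of 15 were on with a median level of 2.09 CPM per kb, the exceptions being HOXB4, HOXB8, HOXC5 and HOXD8. In groups 9 to 13, the posterior end, 14 of 16 were on with a median level of 2.16 CPM per kb. Every gene of groups 9, 10, 11 and 13 was on, whereas neither gene of group 12 was. Of these, HOXD12 was detected in no library but HOXC12 in the 3 Flpo libraries, and the rule cannot pass a gene detected in 1 group only. As means over the 9 libraries, groups 1 to 3 held 9.92% ± 6.57 of the HOX counts (SD), groups 4 to 8 held 42.6% ± 9.67 and groups 9 to 13 held 47.5% ± 10.7. Groups 9 to 13 held the largest share in 6 libraries and groups 4 to 8 in 3, so the order of these 2 was not the same in every library.

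**Figure D1:**
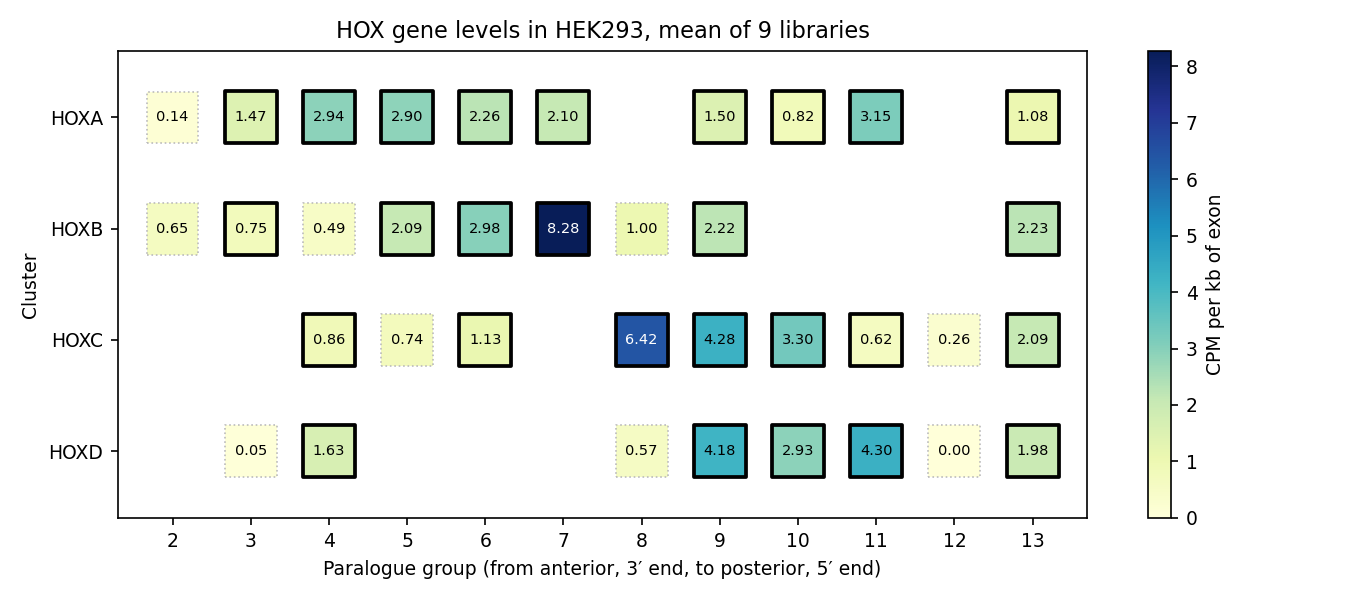
Mean level over the 9 libraries of the 36 HOX genes of paralogue groups 2 to 13 (colour and printed value, CPM per kb of exon), by cluster (rows) and paralogue group (columns, from anterior to posterior), with a solid black frame where the gene was on and a dotted frame where it was not. Frames are dotted for both genes of group 2 and for both genes of group 12, and HOXB7 and HOXC8 have the darkest squares.

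The HOXD cluster shows the group 12 gap within a few kilobases. HOXD13, which patterns digits and the urogenital tract, had 3, 8 and 18 counts in the Cas9 libraries, 5, 0 and 0 in the Cre libraries, and 37, 15 and 97 in the Flpo libraries. HOXD11, next but one along the chromosome, had 4, 13 and 62, then 15, 0 and 3, then 109, 47 and 84 counts. HOXD12, between them, had none. The sequence upstream of each RefSeq start is shown because the 3 neighbours differ in being read out, with the dinucleotide CG in capitals. The windows end where RefSeq (GRCh38.p14) starts the gene, and the HOXD12 window is cut 65 bases earlier, at the first exon base of GENCODE. GENCODE starts HOXD11 earlier, at chr2:176104216, so the HOXD11 window lies inside the gene as GENCODE draws it. All are on the + strand, at chr2:176092471-176092720, chr2:176099545-176099729 and chr2:176107030-176107279.
HOXD13: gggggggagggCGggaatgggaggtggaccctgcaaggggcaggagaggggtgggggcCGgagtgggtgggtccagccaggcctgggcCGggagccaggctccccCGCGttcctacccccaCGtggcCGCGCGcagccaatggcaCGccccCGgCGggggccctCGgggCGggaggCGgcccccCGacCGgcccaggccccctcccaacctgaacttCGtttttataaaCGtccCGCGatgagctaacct
HOXD12: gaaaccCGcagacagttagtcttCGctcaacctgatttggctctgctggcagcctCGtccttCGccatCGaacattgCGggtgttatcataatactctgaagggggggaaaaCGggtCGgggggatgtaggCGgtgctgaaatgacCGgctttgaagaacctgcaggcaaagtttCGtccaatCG
HOXD11: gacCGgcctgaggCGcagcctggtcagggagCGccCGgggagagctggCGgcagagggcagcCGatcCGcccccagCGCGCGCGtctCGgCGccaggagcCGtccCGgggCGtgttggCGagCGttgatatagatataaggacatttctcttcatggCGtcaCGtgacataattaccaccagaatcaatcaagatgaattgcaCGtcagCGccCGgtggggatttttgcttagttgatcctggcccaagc
The HOXD13 window holds 21 CG in 250 bases, the HOXD11 window 23 in 250, and the HOXD12 window 12 in 185. RefSeq windows of 250 bases were found for 20 of the 39 HOX genes, 27 windows in all, with a median of 19 CG against a median of 11 over 35116 windows of all genes. TATAAA, read on both strands, stands in the HOXD13 window and in 5 of the 27 HOX windows, and in 10.7% of all windows. These are descriptions of letters in a window and not of binding or use.

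The 12 highest HOX genes per kilobase came from all 4 clusters and from groups 4 to 11. HOXB7 stood first with 8.28 ± 4.80 CPM per kb (SD, n = 9 libraries), ahead of HOXC8 with 6.42 ± 5.89. HOXD11 had 4.30 ± 3.14, HOXC9 had 4.28 ± 2.28 and HOXD9 had 4.18 ± 2.96. The others were HOXC10 with 3.30 ± 1.98, HOXA11 with 3.15 ± 1.72, HOXB6 with 2.98 ± 4.63, HOXA4 with 2.94 ± 2.12, HOXD10 with 2.93 ± 1.26, HOXA5 with 2.90 ± 2.14 and HOXA6 with 2.26 ± 1.69. Neighbours in this order lay within each other's SD throughout, the step from HOXB7 to HOXC8 included. The same 12 genes led when the longest annotated transcript gave the length. Reads of overlapping HOX transcripts cannot always be assigned to 1 gene. Of the words of 31 bases in HOXD11 transcripts 20.5% also occur in HOXD10 transcripts, and of those of HOXA4 29.4% occur in another gene on the same strand. For HOXD4, also called on, the same-strand share was 78.2%. On the opposite strand it was 62.2% for HOXA7, 35.7% for HOXA6 and 29.8% for HOXA11. The use of strand is not given, so both kinds of overlap leave the levels and on calls of these genes uncertain. No word of HOXC8 occurs in another gene on either strand.

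The 3 groups were then compared, with Cre and Flpo each set against Cas9 alone and against each other. Both comparisons with Cas9 share the Cas9 libraries. Of the 39 HOX genes 17 passed edgeR's filter on low counts and were tested, and 22 were not tested, among them HOXA5, HOXA6 and HOXB6 of the 12 highest. The tested genes are HOXA3, HOXA4, HOXA7, HOXA11, HOXA13, HOXB3, HOXB7, HOXB9, HOXB13, HOXC6, HOXC8, HOXC9, HOXC10, HOXC13, HOXD9, HOXD10 and HOXD11. In bulk RNA, fewer cells that express a gene and less RNA per cell cannot be told apart.

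HOXC8, a gene of the thoracic body level, was the HOX gene that passed the test, and its level was higher with Cre than with Flpo. HOXC8 (chr12:54009106-54012362, + strand, no exon shared with another gene) had 29, 11 and 20 counts in the Cas9 libraries, 32, 6 and 36 in the Cre libraries, and 14, 7 and 7 in the Flpo libraries. At these depths its level was 23.9, 6.25 and 5.65 CPM in the Cas9 group (11.9 ± 10.4, SD, n = 3), 15.4, 22.1 and 30.6 CPM in the Cre group (22.7 ± 7.61) and 2.39, 1.76 and 1.10 CPM in the Flpo group (1.75 ± 0.644). Every Flpo library was below every other library, while the Cas9 and Cre groups overlapped through Cas9 replicate 1. The log2 fold change of Cre against Flpo was 3.66 (SE 0.76, edgeR adjusted p = 0.0167). The median of all genes lay 4.0 below it.

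HOXB8 and HOXD8 are the paralogues of HOXC8. HOXB8 was detected in fewer than 6 libraries, with 3, 1 and 6 counts in the Cas9 libraries, 17, 0 and 5 in the Cre libraries, and 0, 1 and 7 in the Flpo libraries. HOXD8 had 1, 3 and 7, then 7, 0 and 2, then 12, 1 and 10 counts. Neither of these paralogues was tested.

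**Figure D2:**
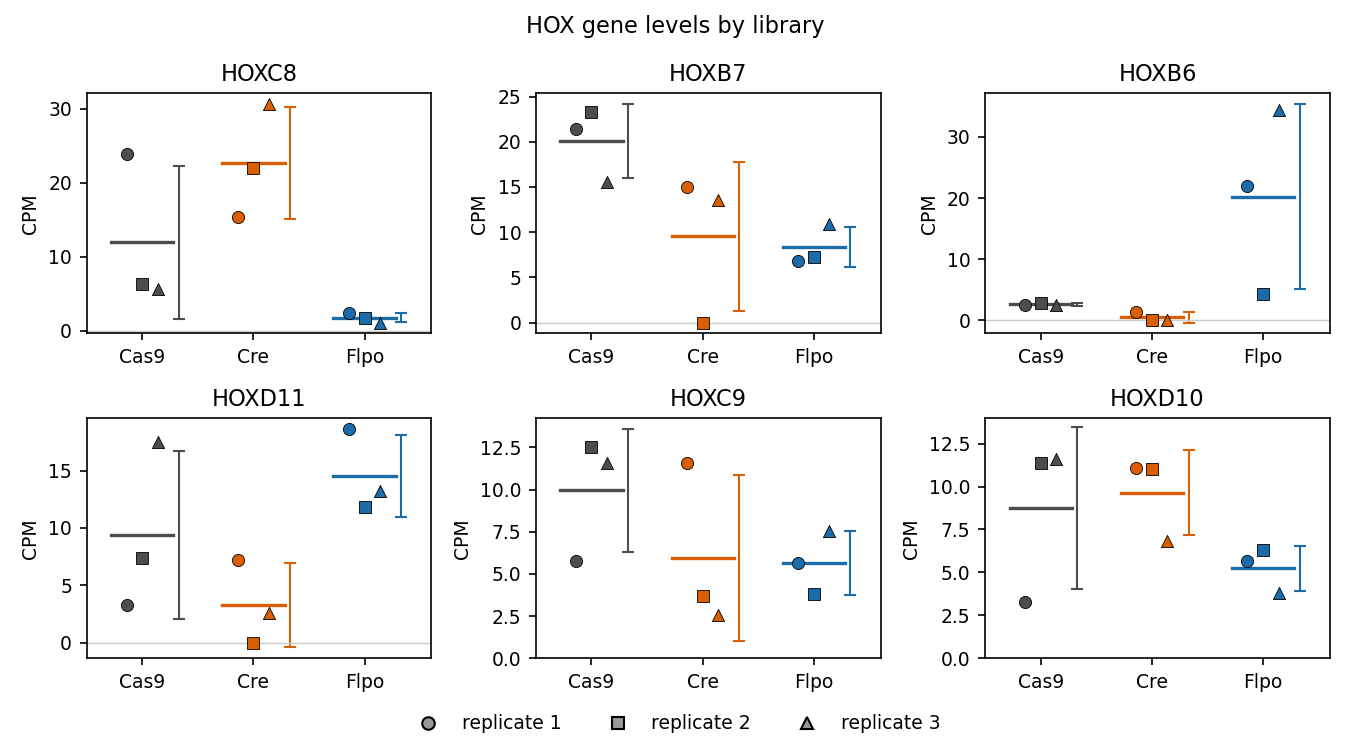
Level in CPM (vertical axes, linear) of 6 HOX genes in each library, by group, with symbols for the replicates, a line at the group mean and a bar of 1 SD (n = 3). The 3 Flpo libraries lie lowest for HOXC8, between 1.10 and 2.39 CPM, and highest for HOXB6, between 4.28 and 34.3 CPM.

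Against Cas9, HOXC8 did not pass in either direction. Its log2 fold change of Flpo against Cas9 was -2.69 (SE 0.74, edgeR adjusted p = 0.0910, unadjusted p = 0.00285), without overlap between the groups. It passed in 4 of 19 alternative fits, among them without Flpo replicate 2 (-2.70, edgeR adjusted p = 0.0378) and DESeq2 (-2.70, adjusted p = 0.0110), and not in the other 15. Without Cas9 replicate 1, the Cas9 library with the highest level, the difference shrank to -1.75 (edgeR adjusted p = 0.318). Without the 3 libraries with the smallest totals it was -1.73. Those are Cas9 replicate 1 and Cre replicates 2 and 3, so that fit leaves 1 Cre library and only its effect sizes are given. Cre against Cas9 gave 0.97 (SE 0.70, edgeR adjusted p = 0.626). The joint test over all 3 groups gave an edgeR adjusted p of 0.0289. That call was lost in 8 of 18 alternative fits. Among these were the fits without Cas9 replicate 2 (edgeR adjusted p = 0.0697), Cre replicate 2 (0.0588), Cre replicate 3 (0.0942), Flpo replicate 1 (0.132) or Flpo replicate 3 (0.128). The others were the fits with the replicate block (0.0578), with the covariate of log2 total (0.692) and without the 3 libraries with the smallest totals, where Cre has no replicate.

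The call for HOXC8 between Cre and Flpo kept its direction in all 19 alternative fits and its significance in 13. Of these, the fit with only the groups compared gives no support, as HOXC8 passed its filter on low counts through the Cre libraries alone. In the edgeR fit to all 9 libraries no Flpo library reached the filter's level either. Without a filter the difference was 3.59 (edgeR adjusted p = 0.000395). The call was lost without Cre replicate 2 (3.70, edgeR adjusted p = 0.0530) and without Cre replicate 3 (3.31, adjusted p = 0.0949). It was also lost without Flpo replicate 1 (4.01, adjusted p = 0.0746) and without Flpo replicate 3 (3.38, adjusted p = 0.0541). Without the 3 libraries with the smallest totals the difference was 3.16, with 1 Cre library left and so no spread within Cre. With the log2 library total as a covariate it was 2.28 (edgeR adjusted p = 0.799).

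Between Cre and Flpo, library total and collagen genes differed along with HOXC8, totals being lower in Cre and collagen genes higher. The counts of HOXC8 did not rise with the library total. Those of the other HOX genes did as a sum, from 13 counts in Cre replicate 2 to 1497 in Flpo replicate 3. Not every single gene followed that sum: HOXB8 had 17, 0 and 5 counts in the Cre libraries and 0, 1 and 7 in the Flpo libraries. HOXC6 had 13, 0 and 2 counts in the Cre libraries and 13, 17 and 17 in the Flpo libraries. COL1A2, a fibrillar collagen gene, had 623, 209 and 538 counts in the Cas9 libraries, 587, 1052 and 958 in the Cre libraries, and 1039, 574 and 792 in the Flpo libraries. Of the 6 fibroblast markers 5 were detected in at least 6 libraries and none was at 0 throughout. Their summed level was 262 to 888 CPM in the Cas9 group, 545 to 6391 CPM in the Cre group and 249 to 323 CPM in the Flpo group. Of 4 tested, COL1A1, COL1A2 and COL3A1 were called higher in Cre than in Flpo (log2 fold changes 3.19, 3.47 and 3.05, edgeR adjusted p = 0.0243, 0.0287 and 0.0210). DCN, LUM and PDGFRB, the rest of the list, overlapped between Cre and Flpo. LUM had 2.41, 14.7 and 1.70 CPM in the Cre libraries and 3.41, 2.01 and 4.88 CPM in the Flpo libraries. The keratins KRT8 and KRT18 went the opposite way to the collagens, at -3.36 and -4.43 (edgeR adjusted p = 0.0199 and 0.0167). They were the 2 genes called of 5 tested in the kidney epithelium list of 10, whose sum ran from 396 to 787 CPM in Cas9, 221 to 524 CPM in Cre and 1330 to 4819 CPM in Flpo. That sum is mostly these keratins, which made up 75.6% to 94.2% of it in the Cre libraries and 95.3% to 99.2% in the Flpo libraries. CDH1, the epithelial cadherin, had a mean of 16.7 CPM in Cre and 6.70 CPM in Flpo, the opposite order to the keratins, and was not called. The part of the library total and of these markers in the HOXC8 difference was not tested.

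**Figure D3:**
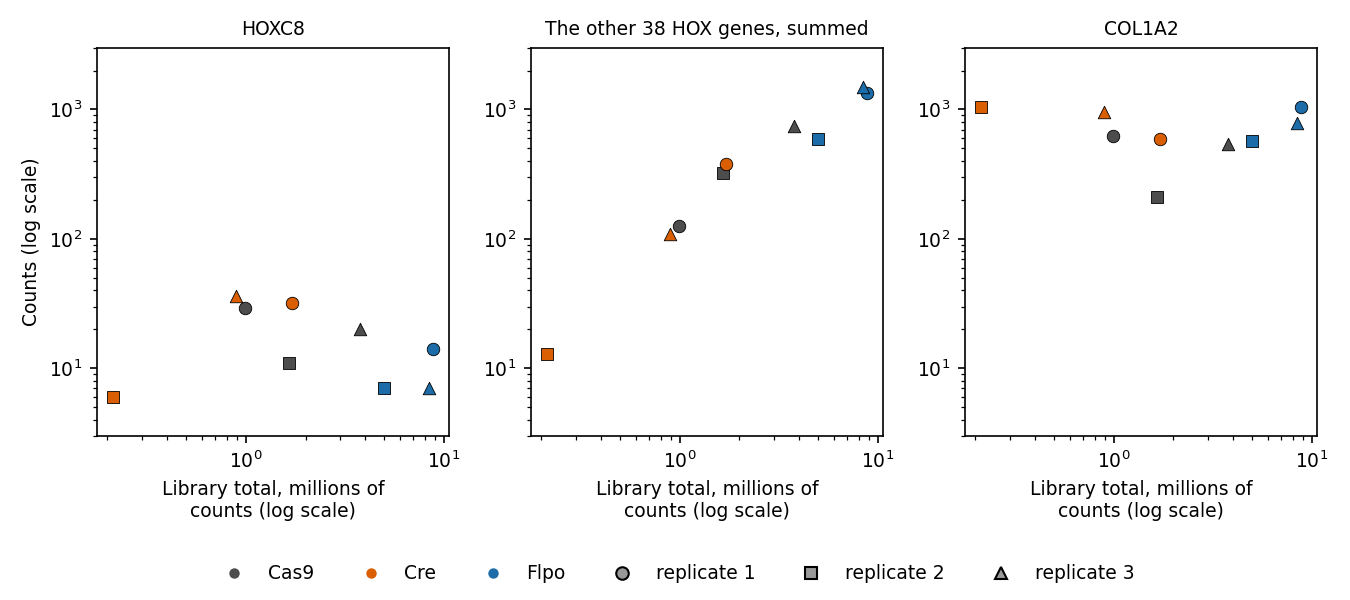
Counts (vertical axis, log scale) of HOXC8, of the other HOX genes summed and of COL1A2 against the library total (horizontal axis, log scale), 1 point per library. The summed HOX counts climb from 13 to 1497 with the total, while HOXC8 stays between 6 and 36 counts and COL1A2 between 209 and 1052.

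Within its own cluster, HOXC8 made up 46.0%, 14.1% and 13.6% of the HOXC counts in the Cas9 libraries, 29.1%, 75.0% and 69.2% in the Cre libraries, and 5.56%, 6.31% and 2.27% in the Flpo libraries. This share does not depend on how libraries are scaled. The share of 75.0% rests on 6 of 8 counts (Wilson 95% interval 40.9% to 92.9%), and that of 29.1%, the lowest Cre share, on 32 of 110 (21.4% to 38.2%). The highest Flpo share, 6.31%, rests on 7 of 111 (3.09% to 12.4%). The intervals cover counting error only. The Cre and Flpo shares did not overlap, and the Cas9 shares lay partly among the Cre shares.

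The other tested HOX genes did not pass between Cre and Flpo, a comparison in which edgeR called 2440 of 11905 genes, or 20.5%. HOXC8 was the 1 called among 17 tested HOX genes, where 6.17% of all genes were called higher in Cre. At an unadjusted p under 0.05 there were 2, HOXC8 and HOXD11, and 39.8% of all genes. The next smallest edgeR adjusted p was 0.121, that of HOXD11. The median log2 fold change was -0.45 for the 17 genes and -0.34 for all genes, with 6 HOX genes above 0 and 11 below. Without composition scaling these medians were 0.33 and 0.44, with 11 HOX genes above 0 and 6 below, so the direction of the family as a whole depends on the scaling while its distance to all genes stayed at -0.11. The calls over all genes turned likewise, from 735 higher of 2440 to 2039 higher of 2879. Of the 17 tested HOX genes, the groups did not overlap for 2 higher in Cre (HOXC8 and HOXD10) and 3 lower (HOXB9, HOXD9 and HOXD11), where the share over all genes was 43.1% (15.3% higher and 27.8% lower). The 3 lower genes had 0 counts in Cre replicate 2. The floor there, 11.03 CPM, lay above every Flpo level of HOXB9. It also lay above the HOXD9 levels of Flpo replicates 2 and 3 (9.07 and 10.7 CPM), and HOXD10 was at that floor.

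**Figure D4:**
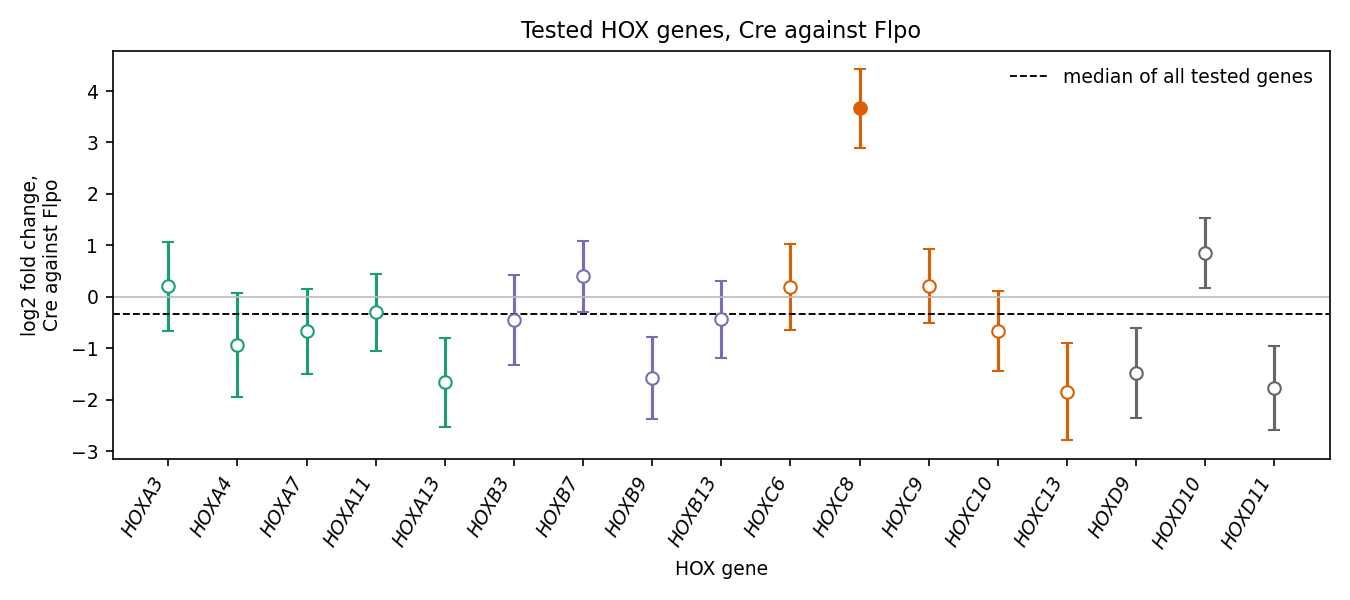
Log2 fold change of Cre against Flpo (vertical axis, bars of 1 SE) for the 17 tested HOX genes, ordered and coloured by cluster, with a dashed line at -0.34, the median of all tested genes. HOXC8, the filled point at 3.66, passed an adjusted p of 0.05, and the open points between -1.84 and 0.85 did not.

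Of the posterior genes, HOXD11, one of the kidney patterning genes, had levels of 3.30, 7.38 and 17.5 CPM in the Cas9 group, 7.23, 0 and 2.55 CPM in the Cre group, and 18.6, 11.8 and 13.2 CPM in the Flpo group. Its Cre libraries lay below its Flpo libraries, and the Cas9 libraries spanned both. The log2 fold change of Cre against Flpo was -1.77 (SE 0.81, edgeR adjusted p = 0.121), and with the log2 library total as a covariate it turned to 1.27 (adjusted p = 0.859). HOXD10, its neighbour, had 3.30, 11.4 and 11.6 CPM in the Cas9 group, 11.1, 11.03 and 6.80 CPM in the Cre group, and 5.63, 6.30 and 3.78 CPM in the Flpo group, and its log2 fold change of 0.85 (SE 0.68) had an edgeR adjusted p of 0.352. HOXC9 had 5.77, 12.5 and 11.6 CPM, then 11.6, 3.68 and 2.55 CPM, then 5.63, 3.78 and 7.56 CPM in the same order of groups. Its groups overlapped, and its difference between Cre and Flpo was 0.21 (SE 0.72). In Cre replicate 2 the HOXD10 level rests on 3 counts, the floor, and that of HOXC9 on 1 count. In Cre replicate 3 HOXD10 had 8 counts.

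HOXB7, the highest HOX gene per kilobase, had 21.4, 23.3 and 15.5 CPM in the Cas9 group, 14.95, 0 and 13.6 CPM in the Cre group, and 6.83, 7.30 and 10.9 CPM in the Flpo group. All 3 Cas9 libraries lay above the other 6, yet neither comparison with Cas9 passed. The log2 fold change was -1.25 for Flpo (SE 0.67, edgeR adjusted p = 0.315) and -0.85 for Cre (SE 0.69, adjusted p = 0.648).

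Flpo against Cas9 gave 27 called genes of 11905, or 0.227%, and none of the 17 tested HOX genes was among them. At an unadjusted p under 0.05 there were 2 HOX genes, HOXC8 and HOXC13, and 20.0% of all genes. HOXC13, known from hair and nail, had 0.824, 4.54 and 2.54 CPM in the Cas9 group and 9.90, 3.02 and 18.3 CPM in the Flpo group, with a log2 fold change of 1.93 (SE 0.89, edgeR adjusted p = 0.245). DESeq2, which tested more genes, called 2 of 31 HOX genes, HOXC8 and HOXB6, and 1088 of 14679 genes in all, or 7.41%. The median was 0.08 for the HOX genes and 0.05 for all genes. Of the 17 tested HOX genes, groups did not overlap for 2 higher in Flpo (HOXA13 and HOXB3) and 3 lower (HOXB7, HOXC6 and HOXC8), with 25.0% of all genes in that state (12.7% higher and 12.3% lower).

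Cre against Cas9 gave no called gene by edgeR, 0.0% of 11905, with 879 genes (7.38%) and 0 HOX genes at an unadjusted p under 0.05. DESeq2 called 4 genes of 25268, or 0.0158%, none a HOX gene. The HOX median was -0.65 and that of all genes -0.22, with 6 HOX genes above 0 and 11 below, and without composition scaling the medians were -0.39 and 0.03. Of the 17 tested HOX genes, HOXB7 and HOXB9 were lower in every Cre library than in any Cas9 library, and 9.86% of all genes did not overlap (3.44% higher and 6.43% lower). HOXB9 had 0 counts in Cre replicate 2, where the floor of 3 counts, 11.03 CPM, lay above every Cas9 level of that gene. In the joint test edgeR called 1132 genes, or 9.51%, and HOXC8 alone among the HOX genes. At an unadjusted p under 0.05 it was again the 1 HOX gene, beside 30.4% of all genes.

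HOXB6 was left untested by the filter on low counts, although 1 group held most of its counts. It had 3, 5 and 9 counts in the Cas9 libraries, 3, 0 and 0 in the Cre libraries, and 129, 17 and 218 in the Flpo libraries. The levels were 2.47, 2.84 and 2.54 CPM, then 1.45, 0 and 0 CPM, then 22.0, 4.28 and 34.3 CPM, so every Flpo library was above the other 6. The floor of 3 counts was 11.03 CPM in Cre replicate 2, above every Cas9 level, and 2.55 CPM in Cre replicate 3, within the range of the Cas9 levels. Fits that kept HOXB6 gave a log2 fold change of Cre against Flpo of -4.66 without a filter (edgeR adjusted p = 0.000349) and -4.71 in DESeq2 (adjusted p = 0.00167). The filter of DESeq2 uses the mean count, which for HOXB6 came mostly from the Flpo libraries. Without the 3 libraries with the smallest totals, which leaves 1 Cre library, the difference was -3.72. Flpo against Cas9 gave 2.93 without a filter (edgeR adjusted p = 0.0172), and 2.90 without those 3 libraries.

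HOXB6 and HOXB7 are neighbours on the - strand of chromosome 17. Their homeoboxes share a stretch of 51 bases, and are shown because the levels of these genes went in opposite directions between Cas9 and Flpo. The edgeR test did not call HOXB7 there and left HOXB6 untested. Each run is the 180 bases that code for the 60 residues of the homeodomain, read from GENCODE 29 transcripts, with codons 48 to 53 of the DNA recognition helix in capitals.
HOXB6: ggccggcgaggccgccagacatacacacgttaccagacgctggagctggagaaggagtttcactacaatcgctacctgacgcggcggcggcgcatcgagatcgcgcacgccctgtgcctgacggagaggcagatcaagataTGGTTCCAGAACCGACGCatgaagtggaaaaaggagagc
HOXB7: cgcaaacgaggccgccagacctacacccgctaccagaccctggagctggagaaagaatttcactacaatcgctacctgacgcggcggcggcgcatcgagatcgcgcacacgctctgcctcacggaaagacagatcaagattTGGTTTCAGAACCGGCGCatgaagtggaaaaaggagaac
They differ at 20 of 180 bases, and the longest identical stretch is 51 bases. Over whole transcripts, 16.2% of the words of HOXB6 also occur in other genes on its strand, HOXB3 first, and 12.9% in transcripts of the other strand, HOXB-AS3. No use of strand in the counting is given in the sources used here, so reads from the part shared with HOXB-AS3 could not be assigned to either gene for certain, and reads shared with HOXB7 may have been split between them.

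Some genes that were not on had counts in the Flpo libraries, the deepest. HOXC12 had 14, 9 and 15 counts there and at most 1 in any other library. HOXB2 had 22, 8 and 28 counts there and 9 in Cas9 replicate 3. Neither was tested.

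HOX proteins bind DNA with TALE cofactors, the PBX, MEIS and PKNOX families. All 9 were in the table, 7 were tested and none was called in any comparison. PKNOX1 was the highest of them per kilobase, at 6.42 CPM per kb. The median of the 7 between Cre and Flpo was -0.54, beside -0.34 for all genes.

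Polycomb complexes keep silent HOX genes off and trithorax complexes keep active ones on. None of the 11 tested genes of Polycomb complex PRC2 was called in any comparison. Of 18 tested PRC1 genes 4 were called between Cre and Flpo, 2 in each direction. YAF2 (log2 fold change 1.95) and PCGF1 (1.87) were higher in Cre, and CBX6 (-3.17) was among those lower. Of 13 tested genes of the trithorax list 4 were called. ASH2L (2.42) and KMT2B (1.85) were higher and MEN1 (-2.84) lower. DOT1L (1.66), a histone methyltransferase listed with them and not a subunit of a trithorax complex, was higher. The edgeR adjusted p-values of the 8 called genes of both lists ran from 0.0167 for CBX6 to 0.0465 for PCGF1. Without composition scaling 2 of the 8 did not pass, MEN1 among them (edgeR adjusted p = 0.0730). No gene of these lists was called in either comparison with Cas9. These shares are to be read against the 20.5% of all genes called.

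Genes that flank the clusters were compared as well. Of 10 tested, HNRNPA1, beside HOXC, was lower in Cre than in Flpo at -4.02 (edgeR adjusted p = 0.0174) and HIBADH, beside HOXA, at -3.39 (adjusted p = 0.0205). These 2 of 10 are close to the 20.5% of all genes called in that comparison. HNRNPA1 encodes a splicing factor with many processed copies in the genome, so its counts are uncertain. Of the retinoic acid receptors and ParaHox genes, which act upstream of or beside HOX genes, 2 of 12 were tested and none was called. The ParaHox genes CDX1, CDX4, GSX1 and GSX2 had 0 counts in every library, and CDX2 was detected in 7 of 9. Of 20 noncoding or small genes inside the clusters, PRAC1 and PRAC2 were matched by symbol, neither reached 3 counts in any library, and the others were not analysed here.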

How the data were processed

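Total RNA of 9 HEK293 samples was extracted with TRIzol and made into TruSeq libraries, per the labels' protocols. A single table of estimated counts, 1 row per gene symbol and not normalized, was deposited by the authors. The submitters' processing notes name Salmon 0.14.1 and hg38. The annotation and the use of strand are not given in the sources used here. Estimated counts were rounded to whole numbers. Columns were matched to samples by title, and 0 columns were left out.

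HOX genes were taken by symbol. Coordinates are those of GENCODE 29 (GRCh38). The quasi-likelihood test of edgeR 4.0.16 (in R 4.3.3) was fitted to the 9 libraries at once with TMM scaling and no covariate. Its default filter (minimum count 10, minimum total 15) kept 11905 genes. Adjusted p-values are Benjamini-Hochberg values over those genes, threshold 0.05. An SE is the size of the log2 fold change over the root of its F statistic. With only 3 libraries against 3, an exact permutation test of 1 value could not go below 0.1, so none is given. The code was tested on simulated data. Alternatives used DESeq2 1.42.0, limma 3.58.1 (voom with sample quality weights), other scaling, other filters, only the groups compared, the replicate number as a block, a covariate of log2 library total, and each library left out. Leaving out the 3 libraries with the smallest totals was chosen after seeing the data. It leaves 1 Cre library, so Cre has no replicate in that fit. No p-value or count of genes called is given from it. Summaries used Python 3.11.15 and scipy 1.17.1.

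The members and lists were chosen with earlier results of these data known. Named in full are HOX genes past the threshold and the 12 highest per kilobase, with up to 10 others as examples of cluster position, and up to 4 called members of each list. HOXB9, HOXC13 and others were named after their values were seen, where a count of 5 or fewer needed its names. Some genes and sequences are not reported here.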

Additional observations from a re-analysis of the deposited data

Results flagged for a closer look

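HOXC8 stood out because the effect of Cre differed from that of Flpo under the same contrast with Cas9. The difference, Cre minus Flpo, was 3.66 on the log2 scale (SE 0.76, edgeR adjusted p = 0.0167), from an effect of 0.97 for Cre and of -2.69 for Flpo. It is the same test as Cre against Flpo above, not a further one. Of the 17 tested HOX genes it alone differed in this way, while 20.5% of all tested genes did.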

How the results depend on the processing

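The tests rest on 3 libraries a group whose totals differ 41.3-fold, and in Cre replicate 2 a level under 11.03 CPM cannot be called detected. Detection at 10 counts left 12 genes on in place of 27. The cluster shares moved by less than 1 SD under every alternative run for them, and the same 12 genes led with the other length.

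Genes called between Cre and Flpo (2440) numbered 4103 in DESeq2, 8043 with voom weights and 1568 with the replicate block. They numbered 0 with the covariate of log2 total (732 at an unadjusted p under 0.05) and 0 to 5559 with 1 library left out. Between Flpo and Cas9 (27) they numbered 1088 in DESeq2, 1169 with no filter, 157 with at least 10 counts in 3 libraries and 7268 with voom weights. Without composition scaling there were 12, and with the replicate block 6. With only the groups compared there were 0 (2807 unadjusted), with the covariate 0 (1791 unadjusted), and with 1 library left out 0 to 2685. Between Cre and Cas9 (0 in edgeR) they numbered 4 in DESeq2, 51 with no filter and 3960 with voom weights. For any difference (1132) they numbered 2950 in DESeq2, 3128 with no filter, 9475 with voom weights and 426 with the replicate block. With the covariate there were 0 (1055 unadjusted), and with 1 library left out 10 to 4194.

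HOX genes called between Cre and Flpo (1) numbered 2 in DESeq2, 2 with no filter and 2 with at least 10 counts in 3 libraries. With only the groups compared there were 2, with voom weights 7, with the covariate 0 (0 unadjusted), and with 1 library left out 0 to 4. The second gene, where there were 2, was HOXB6, which those settings let into the test. At 10 counts in 3 libraries, with only the groups compared and with 1 library left out, it passed the filter through Flpo libraries alone. Those settings therefore give the HOXB6 difference no support. With only the groups compared, HOXC8 passed the filter through the Cre libraries alone, so that setting gives the HOXC8 difference no support either. DESeq2 filters on the mean count, and most HOXB6 counts came from the Flpo libraries. Between Flpo and Cas9 (0 in edgeR) they numbered 2 in DESeq2, 2 with no filter, 9 with voom weights and 0 to 2 with 1 library left out, the 2 without Flpo replicate 2. Between Cre and Cas9 (0 in edgeR) voom weights gave 4. For any difference (1) they numbered 2 in DESeq2, 2 with no filter, 2 with at least 10 counts in 3 libraries and 13 with voom weights. With the replicate block there were 0 (1 unadjusted), with the covariate 0, and with 1 library left out 0 to 2. With the covariate, HOXC13 between Flpo and Cas9 turned to -0.28 and HOXD11 between Cre and Flpo to 1.27. The cause of these changes was not tested.

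Same-numbered libraries showed no steady likeness: their deviations from the group means correlated at -0.48, -0.14 and -0.37 for Cre with Cas9, -0.55, -0.26 and 0.53 for Flpo with Cas9, and 0.37, 0.19 and -0.21 for Cre with Flpo. Totals also differ between same-numbered libraries, so these values cannot show whether such libraries were handled together. With the replicate block HOXC8 between Cre and Flpo was 3.80 (edgeR adjusted p = 0.0264).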
